A study of Mus musculus with 2 samples.

Results

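The 9 genes described here serve iron storage (Fth1, Ftl1), iron export (Slc40a1), iron import (Tfrc, Slc11a1, Slc11a2), ferritin turnover (Ncoa4) and the sensing of iron (Aco1, Ireb2). They were taken by name from a list, 9 of 26124 genes counted in each of 2 matrices. The samples were cultures of lineage-depleted bone marrow progenitors from C57BL/6 mice aged 8 to 10 weeks, grown with the cytokine GM-CSF at 20 ng/ml. The heme cultures received 300 µM heme-albumin on day 3 and the control cultures received albumin alone. Cells of days 0, 3, 4, 5 and 7 carried hashtag antibodies, oligonucleotide-tagged antibodies that mark the day, and the 5 days of each treatment were pooled into 1 droplet library. Days are culture days from the hashtags: the exposure times in the series' design text do not match day 5 counted from the addition, so how long that culture was exposed is uncertain. With 1 library per treatment there was no replicate check, no test was possible, and the 95% intervals given below cover counting error only.

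Ferritin is a shell of heavy chains (Fth1), which oxidise iron, and light chains (Ftl1), which help to deposit it. Ferroportin (Slc40a1) is the only known cellular iron exporter, the transferrin receptor (Tfrc) brings in iron bound to transferrin, and the transporters encoded by Slc11a1 and Slc11a2 move iron out of phagosomes and endosomes. Macrophages that clear red cells recycle iron from heme through this set. Aco1 and Ireb2 encode the iron regulatory proteins, which in iron-poor cells bind a hairpin in target mRNAs, the iron-responsive element. Binding near the start of an mRNA blocks its translation, and binding behind the coding part protects Tfrc mRNA from decay.

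These hairpins are shown because they mark members with an mRNA that the iron regulatory proteins can bind, and on which side of the coding part. Transcripts of the GRCm38 mouse build were searched for a C, 5 stem bases, the loop CAGTGN with a last base other than G, and 5 bases that pair with the stem, G with T allowed. Capitals mark the bulged C and the loop, and each sequence is printed 5′ to 3′ on the strand of the gene.
Fth1, 5′ UTR, chr19:9982732-9982760, plus strand: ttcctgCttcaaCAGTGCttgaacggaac
Ftl1, 5′ UTR, chr7:45459779-45459807, minus strand: gtcttgCttcaaCAGTGTttgaacggaac
Slc40a1, 5′ UTR, chr1:45925465-45925493, minus strand: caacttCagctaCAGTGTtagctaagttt
Tfrc, 3′ UTR, chr16:32631219-32631247, plus strand: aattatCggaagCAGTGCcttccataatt
Tfrc, 3′ UTR, chr16:32631598-32631626, plus strand: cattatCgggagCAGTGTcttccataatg
Tfrc, 3′ UTR, chr16:32631663-32631691, plus strand: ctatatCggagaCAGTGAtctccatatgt
Tfrc, 3′ UTR, chr16:32631710-32631738, plus strand: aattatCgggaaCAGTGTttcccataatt

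The elements of Fth1 and Ftl1 had the same base at 26 of 29 positions, against 13 of 29 for either of them and Slc40a1. The 4 elements of Tfrc had the same base at 18 to 25 of 29 positions. The pattern was found in the 5′ UTR of 0.105% of 21901 coding genes and in the 3′ UTR of 0.457%. It was not found in Slc11a1, Slc11a2, Ncoa4, Aco1 or Ireb2, which says only that these letters are not in the annotated transcripts. Slc11a2 is among the mRNAs known to hold such an element, behind the coding part, so the pattern misses some known elements.

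On the same build, Fth1 (ENSMUSG00000024661) lies at chr19:9980598-9985098 on the plus strand and Ftl1 (ENSMUSG00000050708) at chr7:45457944-45459884 on the minus strand. Slc40a1 (ENSMUSG00000025993) lies at chr1:45908068-45926523 on the minus strand, Tfrc (ENSMUSG00000022797) at chr16:32608920-32632794 on the plus strand and Slc11a1 (ENSMUSG00000026177) at chr1:74375195-74386062 on the plus strand. Slc11a2 (ENSMUSG00000023030) lies at chr15:100387898-100425072 on the minus strand and Ncoa4 (ENSMUSG00000056234) at chr14:32159865-32179855 on the plus strand. Aco1 (ENSMUSG00000028405) lies at chr4:40143081-40198338 and Ireb2 (ENSMUSG00000032293) at chr9:54863789-54912530, both on the plus strand.

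Levels are unique molecular identifier (UMI) counts, which count captured RNA molecules, summed over the cells of a culture and given as CPM, the counts scaled to the same total in each culture. In such sums, more cells of a type and more RNA per cell cannot be told apart. The cultures of days 3 to 7 held 1883 to 2564 cells and 19369248 to 32835088 UMIs, and those of day 0 held 358 control and 1118 heme cells, where the limits kept 20.9% and 59.6% of barcodes. Days 0 and 3 preceded the addition and give the difference between the libraries before it. All 5 days of a library shared droplets, so free RNA or miscalled hashtags of later days may enter these values. Their part in the values of days 0 and 3, and in ratios divided by day 3, was not tested. On days 0 and 3 the heme library was already higher by a median log2 ratio of 0.32 and 0.26 over genes at 10 or more CPM, and by 0.22 to 0.27 on days 4 to 7. Scaling by TMM factors in place of totals moved all log2 ratios of day 4 by -0.28 and those of day 7 by -0.25. The limits on cells removed more of the heme library, with 62.7% to 78.9% of its hashtag-singlet barcodes kept on days 3 to 7 against 81.3% to 90.9% in the control. The limit of 5000 detected genes removed 16.4% to 33.9% of the heme and 4.82% to 8.34% of the control singlets of those days. In all, 49 singlet barcodes occurred in both libraries.

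Fth1 was the most abundant member in each culture other than control day 3, where Ftl1 was slightly above it. In the control library the Fth1 level was 2798, 6482, 9324, 14960 and 18299 CPM on days 0, 3, 4, 5 and 7. In the heme library it was 3329, 6238, 23091, 40789 and 56988 CPM. The cultures were close before the addition and apart on each day after it, while the control level also went up with time. The heme over control ratio was 0.962 (0.956 to 0.968) on day 3, 2.48 (2.47 to 2.49) on day 4, 2.73 (2.72 to 2.74) on day 5 and 3.11 (3.10 to 3.12) on day 7. Within the heme library, day 7 was 9.14 times day 3, against 2.82 times in the control library.

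Ftl1 had another course. It stood at 1723, 6604, 7679, 9333 and 6855 CPM in the control cultures of days 0, 3, 4, 5 and 7. The heme cultures had 1347, 4470, 12229, 16388 and 20450 CPM. Ftl1 was thus lower in the heme library before the addition, with a day 3 ratio of 0.677 (0.672 to 0.682), and higher after it, with 1.59, 1.76 and 2.98 on days 4, 5 and 7. On day 7 the control level had gone back to 1.04 times its day 3 value, whereas the heme level was 4.57 times its own. Divided by the day 3 ratio, the Ftl1 ratios of days 4, 5 and 7 were 2.35, 2.59 and 4.41. Those of Fth1 were 2.57, 2.83 and 3.24.

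The balance of the ferritin chains differed between days. The Fth1 to Ftl1 ratio of UMIs, which counts 3′ ends and so does not depend on transcript length, went from 0.982 on day 3 to 2.67 on day 7 in the control library and from 1.40 to 2.79 in the heme library. On day 4 the control stood at 1.21 and the heme culture at 1.89, and on day 5 they stood at 1.60 and 2.49. UMIs listed for the near-identical copy Ftl1-ps1 came to 0.751% to 1.49% of those of Ftl1. How many reads mapped to both copies was not measured, so the Ftl1 level is uncertain by an unknown amount. Together the pair took 2.52% of all control UMIs of day 7 and 7.74% of the heme UMIs.

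**Figure D1:**
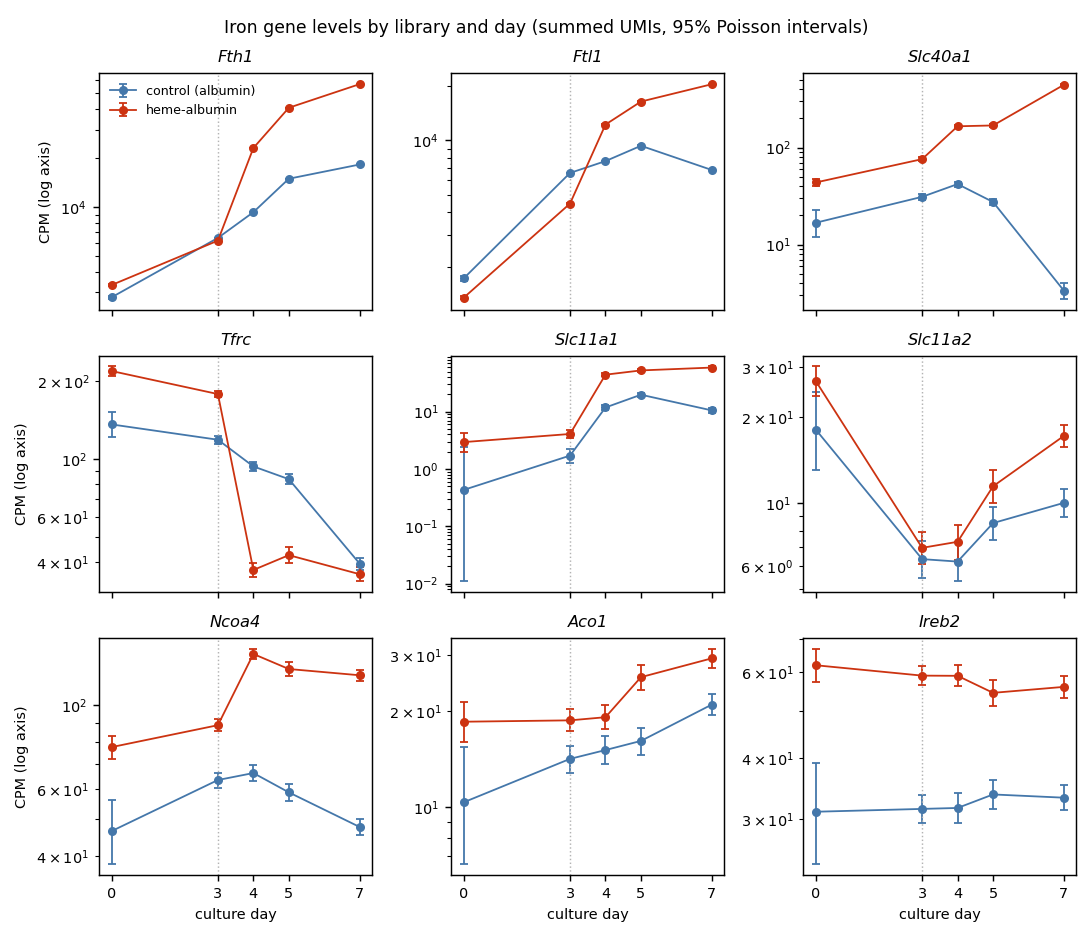
Levels of the 9 members by culture day (x axis) in CPM (log axis), with blue for the control and red for the heme library, points for the summed level of a culture, bars for 95% Poisson intervals and a dotted line at the day of addition. Fth1 parted after day 3 and reached 56988 against 18299 CPM, while Tfrc crossed from 178 to 37.4 CPM between days 3 and 4 of the heme library.

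Slc40a1 had the largest ratio of the members on day 7. Its control level was 16.8, 31.1, 42.0, 27.5 and 3.35 CPM on days 0, 3, 4, 5 and 7, and its heme level was 43.7, 75.9, 165, 169 and 442 CPM. The heme library was higher on all 5 days, including the 2 before the addition. The ratio was 2.44 (2.26 to 2.64) on day 3, 3.93 (3.68 to 4.20) on day 4, 6.13 (5.65 to 6.66) on day 5 and 132 (109 to 161) on day 7. The last step came from both sides: the control level on day 7 was 0.122 times that of day 5, and the heme level was 2.62 times. Divided by the day 3 ratio, the ratios of days 4, 5 and 7 were 1.61, 2.51 and 54.0.

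Tfrc went the other way. Control cultures had 136, 119, 93.8, 83.8 and 39.5 CPM on days 0, 3, 4, 5 and 7, a gradual course. Heme cultures had 219, 178, 37.4, 42.6 and 36.0 CPM, so that the drop lay between days 3 and 4. Within the heme library, day 4 was 0.210 (0.196 to 0.224) times day 3, against 0.789 (0.749 to 0.831) in the control library. The heme over control ratio was 1.5 (1.44 to 1.57) on day 3, 0.399 (0.370 to 0.429) on day 4, 0.509 (0.469 to 0.552) on day 5 and 0.911 (0.837 to 0.991) on day 7, when the control level had come down to that of the heme culture.

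The 2 metal transporters of the SLC11 family differed from each other. Slc11a1 (NRAMP1), a phagosomal transporter of macrophages and neutrophils, was at 0.431, 1.71, 11.8, 19.8 and 10.5 CPM in the control and at 2.94, 4.08, 44.2, 52.5 and 58.8 CPM in the heme cultures. It was near its floor on day 0, with 1 UMI in the control culture. Its ratio was 2.38 (1.71 to 3.37) on day 3, 3.74 (3.29 to 4.25) on day 4, 2.66 (2.38 to 2.96) on day 5 and 5.59 (4.97 to 6.30) on day 7. Relative to day 3 these were 1.57, 1.11 and 2.35, so the day 5 difference was about as large as that before the addition.

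Slc11a2 (DMT1), the transporter of the transferrin cycle, was at 18.1, 6.37, 6.24, 8.52 and 10.0 CPM in the control and at 26.8, 6.97, 7.32, 11.5 and 17.2 CPM in the heme cultures. Both libraries were highest on day 0. Its ratio of 1.17 (0.949 to 1.45) on day 4 had an interval that included 1 and was 0.965 with TMM scaling, and that of day 7 was 1.72 (1.49 to 1.98).

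Ncoa4, the receptor that delivers ferritin to lysosomes, was at 46.6, 63.5, 66.2, 58.9 and 47.7 CPM in the control cultures. The heme cultures had 77.5, 88.6, 136, 125 and 120 CPM. The heme library was again higher on each day, by 1.39 (1.32 to 1.48) on day 3, 2.06 (1.94 to 2.18) on day 4, 2.11 (1.98 to 2.26) on day 5 and 2.51 (2.36 to 2.67) on day 7. The part of the day 7 value beyond day 3 was 1.80.

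The mRNAs of the iron regulatory proteins had different courses. Aco1, whose protein is a cytosolic aconitase in iron-replete cells, was at 10.3 to 21.0 CPM in the control and 18.5 to 29.4 CPM in the heme cultures, and day 7 was 1.48 times (1.31 to 1.68) day 3 in the former and 1.57 times (1.41 to 1.74) in the latter. Ireb2, whose protein is degraded when iron is plentiful, was at 31.0 to 33.7 CPM in all 5 control cultures and at 54.4 to 61.9 CPM in all 5 heme cultures. The Ireb2 ratio was 1.99 on day 0 and 1.87 on day 3, as large as the 1.86, 1.61 and 1.69 of days 4, 5 and 7. Relative to day 3, Ireb2 stood at 0.995, 0.861 and 0.900, and Aco1 at 0.960, 1.20 and 1.06.

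**Figure D2:**
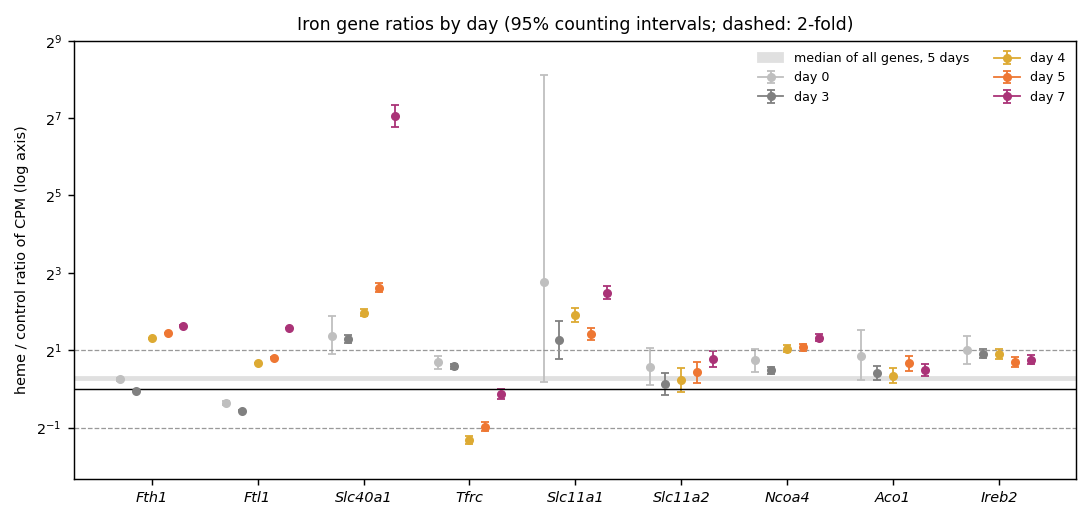
Heme over control ratio of CPM (log axis) of each member (x axis), coloured by culture day, with 95% counting intervals, a grey band for the median of all genes over the 5 days and dashed lines at a fold of 2. Fth1 and Ftl1 sat at or below 1 on day 3 and above it from day 4, whereas Ireb2 stayed between 1.61 and 1.99 on all days.

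Of the 9 members, 2 (Slc11a1 and Slc40a1) were at least 2-fold higher in the heme library on day 0, when 13.7% of all genes entering were higher and 2.33% lower by that fold. The same 2 were higher on day 3 (0 with TMM scaling), when 8.03% of genes were higher and 0.523% lower. On day 4, 4 members were higher (Fth1, Ncoa4, Slc11a1 and Slc40a1) and 1 was lower (Tfrc), beside 9.65% and 2.92% of all genes. Tfrc was at 0.508 over all hashtag-singlet barcodes, short of that fold, and Ncoa4, at 2.06, was at 1.69 with TMM scaling, 1.75 with DESeq2 size factors and 1.48 after division by the day 3 ratio. On day 5 the same 4 were higher and 0 lower, beside 9.1% and 3.75%, and Tfrc, at 0.509, was just short of the fold. Ncoa4 was at 1.74 with TMM scaling that day, and at 2.12 on day 7. On day 7 Ftl1 was added to the 4, 0 were lower, and the shares of all genes were 14.3% and 7.24%. The median log2 ratio of the members was 0.48, 0.90, 0.81 and 1.33 on days 3, 4, 5 and 7, beside 0.26, 0.25, 0.22 and 0.27 for all genes.

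To see in which cells the members differed, cells were gated by raw UMIs of 1 gene. The macrophage gate took 3 or more UMIs of Marco, a scavenger receptor, the neutrophil gate 20 or more of Camp, a granule protein, and the dendritic cell gate 3 or more of Ccr7, a homing receptor of mature dendritic cells. A wider gate of 3 or more UMIs of Csf1r, the receptor for M-CSF, left out cells past the Camp or Ccr7 limits. The macrophage gate held 718 cells in the heme culture of day 7 and 12 in the control, so no macrophage comparison between the libraries was possible with Marco. The Csf1r gate held 291, 299, 418 and 883 control cells and 401, 259, 396 and 920 heme cells on days 3, 4, 5 and 7. Over all hashtag-singlet barcodes it held 1028 control and 1583 heme cells on day 7, so the limits took more of its heme cells.

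The marker lists were summed in each gate. The macrophage, neutrophil and dendritic cell lists hold Marco, Camp and Ccr7, so detection of the gate gene was fixed in advance. Sums without the gate gene were not taken. All 8 macrophage markers were detected in the Marco gate of day 7, at 2294 CPM in sum, against 21.1 to 113 CPM in the neutrophil gates of days 3 to 7. All 9 neutrophil markers were detected in each of those neutrophil gates, at 254863 to 336546 CPM. All 8 dendritic cell markers summed to 8914 to 10758 CPM in the dendritic cell gates with 50 or more cells. The neutrophil list was not at 0 in other gates: in the Csf1r gate it summed to 3163, 4157, 10572 and 1863 CPM in the control and 5207, 19850, 29935 and 4238 CPM in the heme cultures of days 3, 4, 5 and 7, and its part in the values of that gate was not tested.

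Fth1 was higher with heme in each gate that both libraries filled. In the Csf1r gate the control had 14099, 17883, 21037 and 23755 CPM and the heme library 14349, 49716, 56019 and 64999 CPM on days 3, 4, 5 and 7. The ratio was 1.02 on day 3, 2.78 (2.76 to 2.80) on day 4 and 2.74 (2.73 to 2.75) on day 7. Between the lower and the upper quartile, single cells ran from 9988 to 24817 CPM in the control and from 36804 to 57972 CPM in the heme culture of day 4, without overlap.

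In the neutrophil gate, Fth1 started from a lower level. The control had 1106, 2843 and 4220 CPM and the heme library 1861, 12232 and 19090 CPM on days 3, 4 and 5. The ratio was 1.68 (1.64 to 1.72) before the addition and 4.30 (4.25 to 4.35) and 4.52 (4.44 to 4.61) on days 4 and 5. On day 4 the upper quartile of control cells, 4191 CPM, lay below the lower quartile of heme cells, 5266 CPM. The 145 gated heme cells of day 7 were at 6370 CPM, below both earlier days, and the 11 control cells of that day were too few for a value.

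In the dendritic cell gate of day 5, Fth1 was at 5195 CPM in 128 control cells and at 12151 CPM in 90 heme cells, a ratio of 2.34 (2.28 to 2.40). The macrophage markers in these gates summed to 48.8 and 134 CPM and the neutrophil markers to 1172 and 2524 CPM, and their part in the ratio was not tested. The macrophage gate of the heme culture on day 7 had the highest Fth1 level, 68256 CPM, with 23359 CPM of Ftl1. Both chains together made up 9.16% of its UMIs. In the Csf1r gates of that day they made up 8.71% in the heme and 3.15% in the control culture.

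The chain balance differed between gates. The Fth1 to Ftl1 ratio of UMIs was 0.262 in the neutrophil gate and 1.53 in the Csf1r gate of the control on day 3. The heme library stood at 0.641 and 2.03 in these gates that day, so the libraries differed before the addition. On day 4 it was 0.484 and 1.27 in the control and heme neutrophil gates, so that heavy chain UMIs outnumbered light chain UMIs in the latter, and 1.99 and 2.98 in the Csf1r gates. The heme neutrophil gate, at 0.641 on day 3, stood at 1.55 on day 5 and was below 1 again on day 7, at 0.608. On day 7 the Csf1r gates of both libraries stood close, at 3.07 and 2.94. On day 4 Ftl1 itself differed less than Fth1 between the neutrophil gates, with 5871 control and 9610 heme CPM. Its ratio of 1.64 (1.62 to 1.65) followed one of 0.688 on day 3, whereas the Fth1 ratio was already above 1 on day 3.

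Slc40a1 was counted in different gates as the cultures went on. On day 0 the Klf1 gate, 2 or more UMIs of an erythroid transcription factor, held 61.6% of the Slc40a1 UMIs in 11.9% of the heme cells. On day 3 the neutrophil gate held 71.8% (68.8% to 74.7%) of the control UMIs and 78.2% (76.5% to 79.8%) of the heme UMIs, with 38.4% and 48.4% of the cells. The Csf1r gate then held 0.771% and 2.53%.

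The libraries differed on day 4. In the control the neutrophil gate kept 77.2% of the Slc40a1 UMIs on day 4 and the Csf1r gate had 1.56%. On day 5 the control shares were 39.2% and 7.21%, and on day 7, from 110 UMIs in all, 7.27% and 25.5%, so the neutrophil share became smaller there too. In the heme culture of day 4 these shares were 52.5% and 23.0%. They became 10.8% and 40.0% by day 5, then 2.39% and 68.4% by day 7. Cells of the macrophage gate, many of which also passed the Csf1r limit, held 59.0% of the day 7 UMIs in 35.7% of the cells. Cells past none of the Marco, Camp and Ccr7 limits include the Csf1r cells under 3 Marco UMIs. In the control they held 429 of 707 Slc40a1 UMIs on day 5 and 100 of 110 on day 7. In the heme library they held 2817 of 3266 on day 5 and 4557 of 11922 on day 7. Any neutrophils under 20 Camp UMIs lay outside the neutrophil gate, so its share is not that of all neutrophils.

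**Figure D3:**
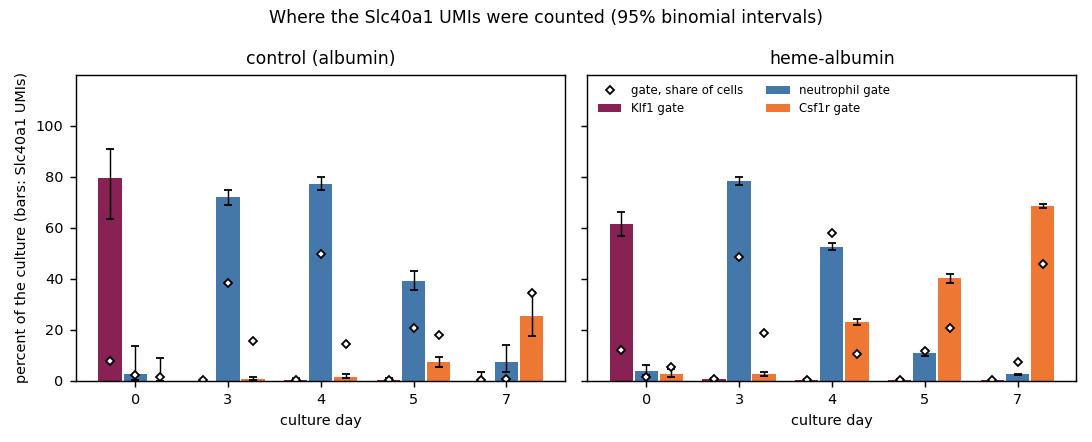
Share of the Slc40a1 UMIs of each culture counted in the Klf1, neutrophil and Csf1r gates (bars, percent, with 95% binomial intervals) and the share of the cells each gate held (open diamonds), by culture day, control on the left and heme on the right. The largest bar moved from the neutrophil gate, 78.2% on day 3, to the Csf1r gate, 68.4% on day 7, in the heme library. UMIs of cells outside these gates are not drawn.

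Within the Csf1r gate, Slc40a1 was nearly absent from the control, at 1.28, 3.02, 6.73 and 1.97 CPM on days 3, 4, 5 and 7. The heme library had 8.83, 232, 206 and 519 CPM. The ratio was 6.89 (3.15 to 17.8) on day 3, from 7 control UMIs, and 76.6 (47.6 to 132) on day 4, 30.6 (23.1 to 41.3) on day 5 and 263 (182 to 396) on day 7. Cells of this gate under 3 Marco UMIs gave 76.5, 30.7 and 202 on days 4, 5 and 7, so the difference was not limited to cells past the Marco limit.

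The share of cells with a Slc40a1 UMI followed the level. In the Csf1r gate of day 7 it was 3.06% of control and 92.9% of heme cells, at a median of 15368 and 17581.5 UMIs per cell, and after thinning each cell to 3000 UMIs it was 0.910% and 65.5%. The dendritic cell gate of the control had few such cells, 0.509% of 393 on day 7 at a median of 12221 UMIs. In the heme library that gate was not near 0: 20.0% of its 90 cells had a Slc40a1 UMI on day 5, and 5.56% after thinning, at 27.0 CPM. Among the control cells 0 of 128 had one, which allows, at 3 counts, up to 2.34% of cells with a UMI and 1.44 CPM over the gate. Against that floor the heme level of 27.0 CPM (19.4 to 36.5) was at least 18.8-fold higher, a bound that leaves out the counting error of the heme value. Cells of all 5 days shared droplets and free RNA in the library, and its part in the 27.0 CPM was not tested.

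In the neutrophil gate, by contrast, Slc40a1 stood at 68.3, 77.2 and 68.8 CPM in the control and 129, 152 and 164 CPM in the heme library on days 3, 4 and 5. The ratio was already 1.89 (1.73 to 2.07) before the addition, and 1.97 (1.82 to 2.13) and 2.39 (2.04 to 2.81) after it. In the control of day 3 the neutrophil gate had 53.3 times (25.7 to 133) the Slc40a1 level of the Csf1r gate. The control of day 4 had 77.2 CPM in the neutrophil and 3.02 CPM in the Csf1r gate. The heme culture of day 3 had 129 and 8.83 CPM in these gates. In the heme culture of day 4 this order was turned over, with the neutrophil gate at 0.656 times (0.610 to 0.707) the Csf1r gate. In the macrophage gate of day 7 the level was 592 CPM, 3.28 times (2.91 to 3.70) that of the neutrophil gate of the same culture.

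**Figure D4:**
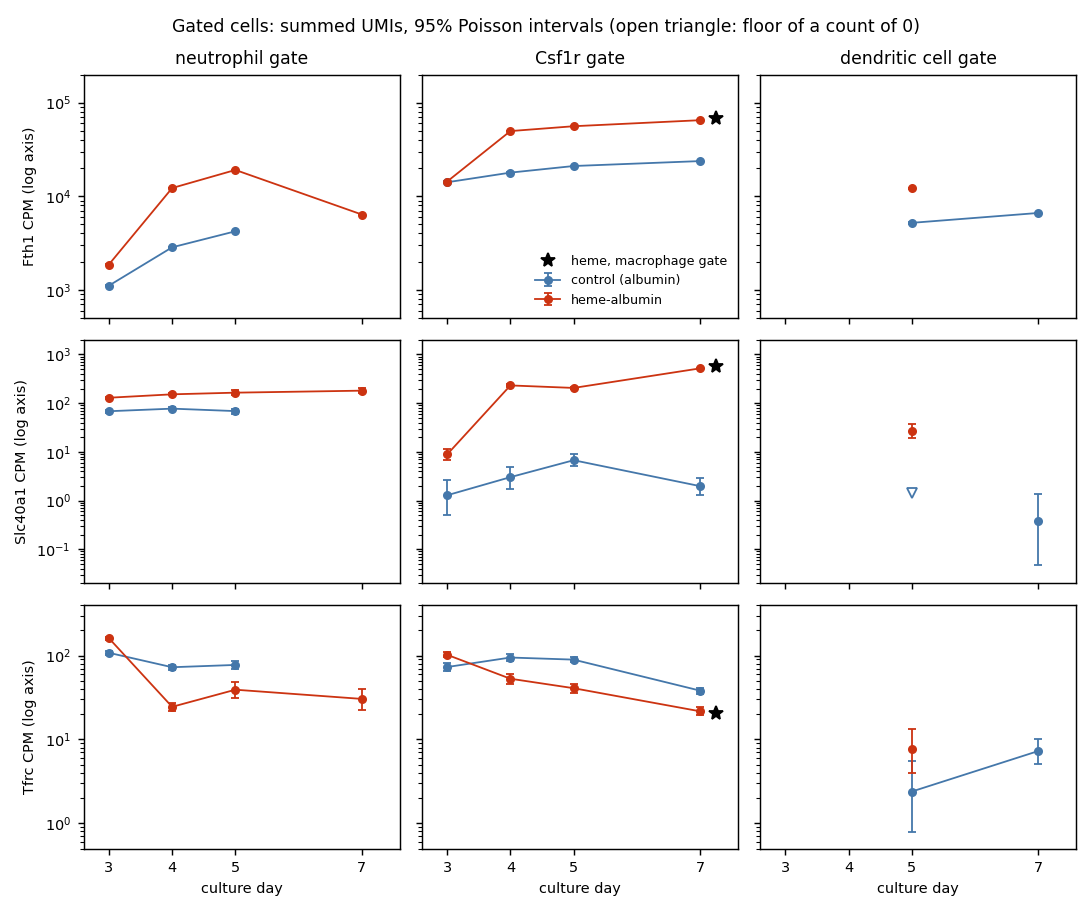
CPM (log axis) of Fth1, Slc40a1 and Tfrc by culture day in the neutrophil, Csf1r and dendritic cell gates with 50 or more cells, blue for control and red for heme, with 95% Poisson intervals, a star for the macrophage gate of the heme culture on day 7 and an open triangle for the floor of a count of 0. In the Csf1r gate Slc40a1 went from 8.83 to 232 CPM between days 3 and 4 of the heme library, while in the neutrophil gate it moved from 129 to 152 CPM.

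The Tfrc difference of day 4 was seen in both large gates. In the neutrophil gate the control had 108, 72.7 and 77.4 CPM and the heme library 162, 24.5 and 39.2 CPM on days 3, 4 and 5. The ratio there was 1.49 (1.39 to 1.61), 0.337 (0.298 to 0.381) and 0.507 (0.393 to 0.646). In the Csf1r gate the control had 73.1, 94.9, 89.6 and 38.2 CPM and the heme library 102, 53.0, 40.9 and 21.7 CPM on days 3, 4, 5 and 7, with ratios of 1.40, 0.559 (0.478 to 0.652), 0.456 (0.394 to 0.527) and 0.567 (0.493 to 0.650). With the macrophage gate left out of both libraries the ratio of all cells on day 7 was 1.22 (1.11 to 1.33), on the other side of 1 from the 0.911 of whole cultures. That step took out 35.7% of the heme cells and 0.468% of the control cells, so the cells left were not matched. The dendritic cell gate hardly held Tfrc, with 5 control and 12 heme UMIs on day 5.

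Because dividing cells take up much iron, Tfrc was also read by Mki67, a proliferation marker. Cells with 2 or more Mki67 UMIs made up 62.5%, 38.2%, 20.9% and 16.3% of the control cultures of days 3, 4, 5 and 7, and 65.0%, 33.1%, 16.4% and 21.7% of the heme cultures. Tfrc was higher in these cells than in cells with 0 Mki67 UMIs in each culture, for example 133 against 64.8 CPM in the control of day 3. Between days 3 and 4 of the heme library it went from 207 to 52.1 CPM in the first class and from 85.3 to 24.2 CPM in the second. In the control library it went from 133 to 122 CPM and from 64.8 to 51.2 CPM. The heme over control ratio of day 4 was 0.429 (0.391 to 0.469) and 0.472 (0.406 to 0.547), so it lay below 1 in both classes.

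Among the gates with 50 or more cells, the erythroid one of day 0 had the highest Tfrc level. The Klf1 gate of the heme library held 133 cells at 510 CPM of Tfrc, 112 CPM of Slc40a1 and 69.4 CPM of Slc11a2. The erythroid markers, Klf1 itself among them, summed to 4324 CPM there. This gate held 56.0% of the Tfrc UMIs of that culture and 62.3% of those of Slc11a2. The gate held 27 cells in the control culture, with 203 UMIs of Tfrc, and at most 9 cells in any later culture.

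Slc11a1 had its highest level in the macrophage gate, 80.5 CPM on day 7. In the Csf1r gate it was at 2.56, 8.53, 15.7 and 13.4 CPM in the control and 6.31, 54.8, 58.3 and 69.9 CPM in the heme library on days 3, 4, 5 and 7. The ratio was 2.46 (1.33 to 4.85) on day 3, 6.42 (4.70 to 8.94) on day 4, 3.71 (3.01 to 4.61) on day 5 and 5.22 (4.47 to 6.12) on day 7. Gated neutrophils of day 4 had 11.5 CPM without and 34.6 CPM with heme; the ratio of 3.02 (2.48 to 3.70) followed one of 2.82 on day 3. It was scarcely counted in the dendritic cell gate, where 1.27% of the control cells of day 7 had a UMI.

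The remaining members differed between gates in both directions. Ncoa4 was higher in the neutrophil than in the Csf1r gate of each culture compared, for example at 76.9 and 44.1 CPM in the control and 146 and 99.6 CPM in the heme culture of day 4. Its heme over control ratio that day was 1.90 (1.76 to 2.06) and 2.26 (1.93 to 2.65) in these gates. Aco1 and Slc11a2 were lower in the neutrophil gate, Aco1 at 6.88 against 26.7 CPM and Slc11a2 at 1.93 against 13.0 CPM in the control of day 4. Ireb2 was at 28.5 and 33.1 CPM there, and its ratio of day 3 was 2.39 in the neutrophil and 1.5 in the Csf1r gate.

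Other genes of iron handling were read from a list of 47, of which 35 to 37 had 20 or more UMIs in both cultures of a day together. The numbers at least 2-fold higher in the heme library were 2, 1, 3, 4 and 9 on days 0, 3, 4, 5 and 7, and those at least 2-fold lower were 0, 0, 2, 2 and 3. These counts stand beside the shares of all genes given above, 14.3% and 7.24% on day 7. The median log2 ratio of the list was 0.11, -0.06, -0.10 and 0.13 on days 3, 4, 5 and 7.

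Of the 5 other iron transporters, 4 were higher on day 7: Slc39a8, Slc39a14, Slc25a37 (mitoferrin), which carries iron into mitochondria, and Mcoln1, a lysosomal channel, at ratios of 2.76, 2.49, 2.49 and 2.02. All 5 were above 1 on day 3 already, with a median log2 ratio of 0.59 against 1.31 on day 7. Of the chaperones and controls of iron regulatory proteins, 1 of 4 that entered was higher, Fbxl5, the iron-sensing adaptor that marks the Ireb2 protein for degradation. Fbxl5 was at 39.9, 57.8, 64.9 and 45.5 CPM in the control and 78.4, 194, 244 and 127 CPM in the heme cultures of days 3, 4, 5 and 7. Its ratio was 1.96 (1.83 to 2.11) before the addition and 3.37, 3.75 and 2.78 after it.

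Of the transferrin cycle and reductases, 5 of 10 entered. On day 7, Steap3, an endosomal ferric reductase, and Tfr2, counted with 25 heme and 7 control UMIs, were higher at 2.33 and 4.35. Tfr2 was at least 2-fold higher on day 3 too. Trf (transferrin) and Hfe, a partner of the transferrin receptors, were lower on day 7. Trf had 206 control and 48.0 heme CPM, a ratio of 0.234 (0.220 to 0.248), and Hfe was at 39.1 and 14.0 CPM, a ratio of 0.358 (0.319 to 0.402). Hfe was lower on days 4 and 5 too, at 0.295 and 0.320, and had stood at 0.674 on day 3. Of the ferroxidases and hepcidin only Cp entered from day 3 on, and its ratio on day 7 was 0.168 from 15 and 109 UMIs.

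The secreted iron-sequestering proteins lactoferrin (Ltf) and lipocalin 2 (Lcn2) had the highest ratios of the list on day 7, 13.8 (13.2 to 14.5) and 5.79 (5.63 to 5.96). Both are also neutrophil granule markers, and the neutrophil gate held 11 control and 145 heme cells that day. On days 4 and 5, when both libraries held many gated neutrophils, the Ltf ratio was 1.28 and 0.740 and that of Lcn2 1.05 and 0.930. Of the 20 genes of iron-sulfur cluster assembly, 0 were past the fold on days 3, 4, 5 and 7 in either direction, with median log2 ratios of -0.30, -0.27, -0.17 and 0.06.

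**Figure D5:**
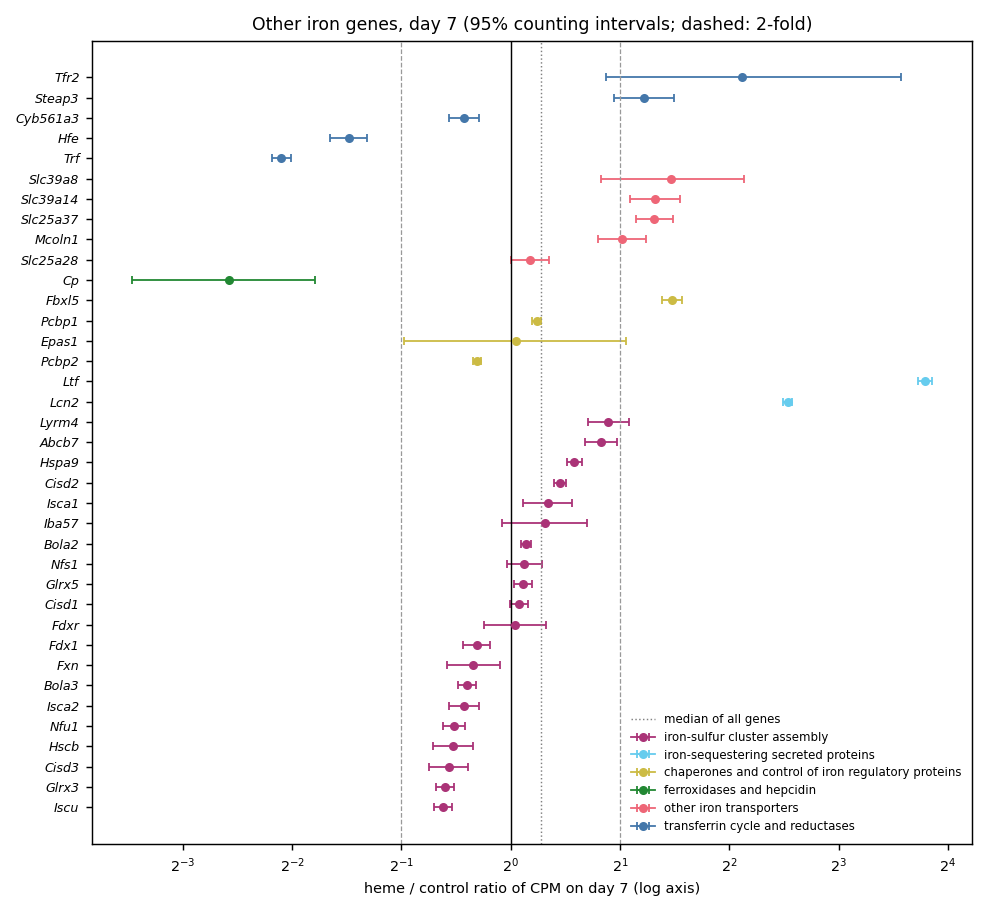
Heme over control ratio of CPM on day 7 (log axis) of the 37 other iron genes that entered, coloured by group, with 95% counting intervals, dashed lines at a fold of 2 and a dotted line at the median of all genes. Ltf at 13.8 lies farthest to the right and Cp at 0.168 farthest to the left, and the 20 iron-sulfur genes lie between the dashed lines.

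Alas2, the erythroid enzyme that starts heme synthesis and another mRNA known to carry an iron-responsive element near its start, was at 21.6 CPM in the control and 11.5 CPM in the heme culture on day 0 and at most 3.06 CPM later.

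Over the 10 cultures, the genes whose log2(CPM + 1) followed a member most closely were named by Pearson correlation among 9695 genes with 10 or more CPM in some culture. Cultures of 1 treatment share a library and the days share a time course, so these values are descriptions. For Fth1 they were Clec4d, Cd300ld and Tulp4 (0.984, 0.984 and 0.980), and Clec4d, a lectin receptor, went from 36.5 to 300 CPM between days 3 and 7 of the heme library and from 26.9 to 88.2 CPM in the control. For Slc40a1 they were Mapk6, Ap1s2 and Fbxo30 (0.966, 0.963 and 0.961), and for Tfrc Trip13, Larp1b and Rnaseh2b (0.951, 0.951 and 0.947). Among the members, Fth1 had a correlation of 0.942 with Slc11a1, 0.936 with Ftl1 and -0.908 with Tfrc, and Ncoa4 one of 0.917 with Slc40a1.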

How the data were processed

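Single-cell 3′ RNA of 1 control and 1 heme library was measured, with 5 hashtag days in each. Per the labels and the study's methods, the authors aligned reads to GRCm38.p6 and counted UMIs with Cell Ranger (the processing notes name version 4.0.0, the header of the deposited matrices a later one) and called hashtags with Seurat 3.2.3. The deposited values are raw counts per gene and barcode.

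Barcodes that the authors' hashtag call names Singlet were used, which removed 1259 control and 1996 heme hashtag doublets, and no other doublet caller was run. Cells had 500 to 5000 detected genes, at most 15% mitochondrial and at most 30% ribosomal UMIs, the study's limits read as upper limits. Culture days were taken from the hashtag calls. Counts were summed per culture or gate and scaled to CPM, with exact Poisson and Clopper-Pearson intervals of 95% and exact intervals of a ratio of Poisson counts. A floor is 3 counts. PCR errors and differences between cultures are not covered. A cell past more than 1 of the Marco, Camp and Ccr7 limits was left out of all 3 gates, and gates with under 50 cells got counts only. Genes entered a count past 2-fold with 20 or more UMIs in both cultures of a day together.

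All 9 members are named, with the other iron genes past 2-fold and the 3 closest patterns for Fth1, Slc40a1 and Tfrc. The members and lists were chosen with earlier results of these data known. Iron-responsive elements were searched in GENCODE transcripts. Python 3.11.15, numpy 2.4.6, scipy 1.17.1 and pandas 2.3.3 were used, with edgeR 4.0.16 (TMM) and DESeq2 1.42.0 (size factors) in R 4.3.3 for alternative scalings only. The calculations were tested on simulated data.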

Additional observations from a re-analysis of the deposited data

Results flagged for a closer look

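On day 5 the heme over control ratio of Tfrc lay on different sides of 1 in different gates, and this difference between gates was not tested. It was 0.456 (0.394 to 0.527) in the Csf1r gate and 0.507 (0.393 to 0.646) in the neutrophil gate, but 3.22 (1.06 to 11.7) in the dendritic cell gate. The last value rests on 5 control and 12 heme UMIs, at 2.39 and 7.71 CPM, and Tfrc was at 89.6 and 40.9 CPM in the Csf1r gate.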

How the results depend on the processing

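Leaving out a replicate was not possible. No paired analysis was possible because each group has 1 library. Of 204 gene values under the alternatives, 134 moved beyond their counting interval. None that was at least 2-fold apart crossed 1. Smaller ratios did: Slc11a2 on day 4 (1.17) was 0.965 with TMM and 0.997 with DESeq2, and after division by day 3 Aco1 on day 4 (1.27) was 0.960 and Ireb2 on days 4, 5 and 7 (1.86, 1.61 and 1.69) was 0.995, 0.861 and 0.900. Of the counts and main values, 103 alternatives stayed and 45 moved.

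Members at least 2-fold higher on day 3 (2) were 0 with TMM, 1 with DESeq2 size factors, all Singlet barcodes, the 500-gene limit alone or 200 or more UMIs, and 4 at a fold of 1.5. On day 4 the higher count (4) was 2 after division by the day 3 ratio, and the lower count (1) was 0 with all Singlet barcodes or the 500-gene limit alone. On day 5 the higher count (4) was 2 as a mean over cells and 7 at a fold of 1.5, and the lower count (0) was 1, Tfrc, with TMM, DESeq2, all Singlet barcodes, the 500-gene limit alone, division by day 3 or a fold of 1.5. The members higher on days 4 and 5 also lacked Ncoa4 with TMM, DESeq2, all Singlet barcodes or the 500-gene limit alone.

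Other iron genes higher on day 4 (3) were 1 with TMM, 0 after division by day 3 and 5 at a fold of 1.5. Those lower (2) were 4 with TMM or DESeq2, 1 with totals without ferritin, all Singlet barcodes, the 500-gene limit or 200 UMIs, and 5 at a fold of 1.5. On day 5 the higher count (4) was 1 with TMM, 2 with DESeq2 or as a mean over cells, 0 after division by day 3 and 8 with no count filter, and the lower count (2) was 4 with all Singlet barcodes or the 500-gene limit, 1 with 200 UMIs and 6 at a fold of 1.5. On day 7 the higher count (9) was 3 after division by day 3, and the lower count (3) was 5 with no count filter or at a fold of 1.5.

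The Fth1 ratio of the neutrophil gate on day 4 (4.30) was 4.13 with gates at 2, 10 and 2 UMIs and 4.38 with all Singlet barcodes, and that of the Csf1r gate on day 7 (2.74) was 2.80 with all Singlet barcodes. The Fth1 to Ftl1 ratio on day 7 with Ftl1-ps1 added was 2.65 (control, 2.67 without) and 2.75 (heme, 2.79 without), and 2.75 in the latter with all Singlet barcodes. Over 8 settings Tfrc stayed below 1 on day 4 (0.266 to 0.508), and Slc40a1 on day 7 ranged from 54.0 to 139. Ncoa4 was under 2-fold on days 4 and 5 with TMM, DESeq2, all Singlet barcodes, the 500-gene limit alone, a mean over cells and division by day 3. The causes of these moves were not tested.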
